A study of Rattus norvegicus with 6 samples.

Results

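Interferon response genes were examined in cultured rat nucleus pulposus cells (NPCs), the cells of the gelatinous core of the intervertebral disc, by RNA-seq of 6 libraries. The genes were taken from a list of symbols. The 9 listed symbols were Stat2, Irf1, Irf7, Irf9, Isg15, Mx1, Mx2, Ifit2 and Ifit3, and the combined table of raw read counts, with 20264 gene rows, held a row for 8 of them. Isg15 had no row there and was not analysed here. Of the 8 genes with a row, Mx1 had no count in any library, and Mx2 and Ifit3 had too few counts for the filter, so that Stat2, Irf1, Irf7, Irf9 and Ifit2 were among the 11426 genes tested.

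All cells were primary cultures from the tail discs of male wild-type Sprague-Dawley rats, whose age is not given, and all were exposed to tert-butyl hydroperoxide (TBHP), an oxidant used to bring on senescence. The TBHP group (n = 3) received the oxidant alone, and the TBHP+FGF21 group (n = 3) received it together with recombinant FGF21, an endocrine fibroblast growth factor. No group without TBHP was among these libraries, so the values describe the addition of FGF21 and not the response to TBHP. The labels give no dose or time for these libraries. In the treatment labels, replicate 1 of the TBHP+FGF21 group is given FGF21, replicate 2 FGF22 and replicate 3 FGF23, whereas the design text and the paper give FGF21 for the whole group, and that grouping was used. The question of the comparison was how FGF21 alters gene expression in NPCs under oxidative stress.

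Interferons are secreted cytokines that alert cells to viral nucleic acid and other danger. Type I interferons bind the receptor subunits IFNAR1 and IFNAR2, whose kinases JAK1 and TYK2 phosphorylate STAT2. Phosphorylated STAT2 acts with IRF9 in the complex ISGF3, which binds the interferon-stimulated response element (ISRE) of target genes. Interferon gamma acts through IFNGR1 and IFNGR2 and on gamma-activated sites (GAS), of which the Irf1 promoter holds a classical example. IRF7 is the factor that amplifies type I interferon production. MX proteins are antiviral GTPases, the IFIT proteins bind foreign RNA, and ISG15 is a ubiquitin-like modifier. The same genes can be switched on in senescent or damaged cells when DNA reaches the cytosol and is sensed by cGAS and STING.

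Promoters are shown because ISRE and GAS are the sequences through which the pathway acts on its own factors. RefSeq's GRCr8 table of promoters (250 bases before to 50 after each gene start) held 6 of the 9 genes, and Isg15, Mx2 and Ifit2 had no entry. Each was searched on both strands for the ISRE, spelled GAAA, any 2 bases and GAAA (TTTC, any 2 bases and TTTC on the other strand), and for the GAS, spelled TTC, any 3 bases and GAA, which reads the same on both strands. Capitals mark the match.
Irf7, ISRE, GRCr8 chr1:205799974-205800273, minus strand: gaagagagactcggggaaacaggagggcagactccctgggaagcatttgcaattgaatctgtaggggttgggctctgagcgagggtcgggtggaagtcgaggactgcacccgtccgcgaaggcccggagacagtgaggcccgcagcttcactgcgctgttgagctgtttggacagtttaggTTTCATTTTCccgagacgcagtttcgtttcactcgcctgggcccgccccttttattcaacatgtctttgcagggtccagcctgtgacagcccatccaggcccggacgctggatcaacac
Irf1, GAS, GRCr8 chr10:38417685-38417984, plus strand: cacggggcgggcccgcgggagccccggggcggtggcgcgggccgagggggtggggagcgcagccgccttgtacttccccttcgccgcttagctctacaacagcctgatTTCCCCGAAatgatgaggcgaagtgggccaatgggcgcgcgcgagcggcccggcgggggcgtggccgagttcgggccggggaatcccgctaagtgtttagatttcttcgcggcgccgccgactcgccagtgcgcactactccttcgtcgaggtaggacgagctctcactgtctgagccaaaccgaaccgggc
The Irf7 match began 69 bases and the Irf1 match 142 bases before the gene start. Ifit3 also held an ISRE match, TTTCAGTTTC, which began 44 bases before the start, and Irf9 held a GAS match, TTCTAGGAA, at 99 bases. Stat2 and Mx1 held neither in this window. Among all 33469 promoters of the table, 3.92% held the ISRE spelling and 8.87% the GAS spelling, and a match of letters is not a measured binding site.

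Libraries held between 18277724.5 (replicate 1 of the TBHP group) and 22426186 counts (replicate 3 of the TBHP+FGF21 group). Levels are given as CPM, the read count scaled to a common library size, after TMM normalization. The groups were compared by the quasi-likelihood test of edgeR, with p values adjusted over all 11426 genes after Benjamini and Hochberg. Of these, 1 gene (0.00875%) had an adjusted p under 0.05. This was Sirt1, whose 6 counts in the combined table are found in no row of the per-sample files. Of 14882 gene rows with a count, 13204 were linked to an identifier by identical counts, which had to be unique in both sources. How many of the remaining rows had no identical counts, as Sirt1 did, was not counted. An unadjusted p under 0.05 was reached by 8.92% of the genes (4.63% higher with FGF21, 4.29% lower). The threshold of the paper, a log2 fold change beyond 1 in either direction at an unadjusted p under 0.05, was passed by 0.534%, and 9.90% had no overlap between the groups (4.90% higher, 5.00% lower). Against this background, none of the 5 tested interferon response genes passed an adjusted or an unadjusted p of 0.05, or the paper's threshold, and the groups did not overlap for 2 of them, Irf1 (higher) and Irf9 (lower). The median log2 fold change of the 5 genes was 0.11, with 3 above and 2 below 0, beside a median of -0.0052 and quartiles of -0.14 and 0.12 over all genes tested.

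Stat2, the STAT that serves type I interferon signalling, stood at 50.3, 44.5 and 46.6 CPM in TBHP replicates 1, 2 and 3, and at 56.3, 45.0 and 51.7 CPM in the TBHP+FGF21 group. The groups overlapped, since replicate 2 of the TBHP+FGF21 group lay at the level of the lowest TBHP libraries. The means were 47.1 ± 2.91 and 51.0 ± 5.70 CPM (SD, n = 3 each). The log2 fold change was 0.11 (95% interval -0.11 to 0.34), with an adjusted p of 0.704 by edgeR.

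Irf9, the DNA-binding subunit of ISGF3, stood at 13.1, 11.3 and 12.2 CPM in the TBHP group and at 10.7, 11.0 and 10.6 CPM in the TBHP+FGF21 group. Every TBHP+FGF21 library was below every TBHP library, but the gap between the nearest libraries, 11.0 and 11.3 CPM, was small. The means were 12.2 ± 0.868 and 10.8 ± 0.223 CPM (SD, n = 3 each), and the log2 fold change was -0.18 (95% interval -0.45 to 0.09, edgeR adjusted p = 0.628). The STAT2 and IRF9 transcripts, whose proteins act in the same complex, thus had point estimates of opposite sign, and neither interval excluded 0.

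Irf1, an early transcription factor of the interferon gamma and cytokine response, stood at 6.14, 5.71 and 6.09 CPM in the TBHP group and at 7.72, 6.32 and 8.37 CPM in the TBHP+FGF21 group. All 3 TBHP+FGF21 libraries were above all TBHP libraries, with replicate 2 close to them. The means were 5.98 ± 0.236 and 7.47 ± 1.05 CPM (SD, n = 3 each). At a log2 fold change of 0.32 (95% interval -0.02 to 0.67), Irf1 had the largest difference and the smallest p of the 5 genes (unadjusted p = 0.0635, edgeR adjusted p = 0.553). For Irf1 and for Irf9, an exact permutation test (two-sided, on log2 CPM) gave p = 0.1, the smallest that 3 libraries against 3 allow, and for Stat2, Irf7 and Ifit2 it gave 0.4, 0.3 and 0.7. The Irf1 reads could also be counted by strand in the per-sample files. The strand column 4 held 57, 56 and 53 counts in the TBHP group against 91, 71 and 101 with FGF21. The strand column 3 held 53, 70 and 77 counts against 72, 61 and 91. The log2 fold change was 0.58 with column 4 (edgeR unadjusted p = 0.0120) and 0.08 with column 3 (edgeR unadjusted p = 0.684). The strand columns had a ratio of 0.977 to 0.986 in total, although the library kit is labelled directional. They thus divided the reads of these libraries about evenly, and most of the Irf1 difference lay in column 4. Each column held only 53 to 101 Irf1 counts a library, and the share of counting error in this contrast was not tested.

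Irf7, the amplifier of type I interferon expression, stood at 3.80, 5.98 and 5.86 CPM in the TBHP group and at 5.64, 6.46 and 6.67 CPM in the TBHP+FGF21 group. Replicate 1 of the TBHP group was alone at the low end, and the other libraries of that group lay among the TBHP+FGF21 libraries. This library had 68 Irf7 counts, whose exact Poisson 95% interval ran from 2.95 to 4.82 CPM, below the lower bound of 5.01 CPM for replicate 2 and of 4.88 CPM for replicate 3 of the same group. Such intervals cover counting error only. The means were 5.21 ± 1.23 and 6.26 ± 0.546 CPM (SD, n = 3 each), and the log2 fold change was 0.26 (95% interval -0.16 to 0.67, edgeR adjusted p = 0.643). It was 0.09 without replicate 1 of the TBHP group, and leaving out replicate 2 instead gave 0.36.

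Among the targets, Ifit2, whose protein binds viral RNA and restrains translation, stood at 19.3, 19.9 and 21.8 CPM in the TBHP group and at 23.2, 19.0 and 15.8 CPM in the TBHP+FGF21 group. The highest and the lowest of the 6 values were both TBHP+FGF21 libraries. The means were 20.3 ± 1.35 and 19.3 ± 3.71 CPM (SD, n = 3 each), with a log2 fold change of -0.08 (95% interval -0.39 to 0.23, edgeR adjusted p = 0.856). The sign turned to 0.06 when replicate 3 of the TBHP+FGF21 group was left out, and leaving out replicate 1 instead gave -0.22.

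**Figure D1:**
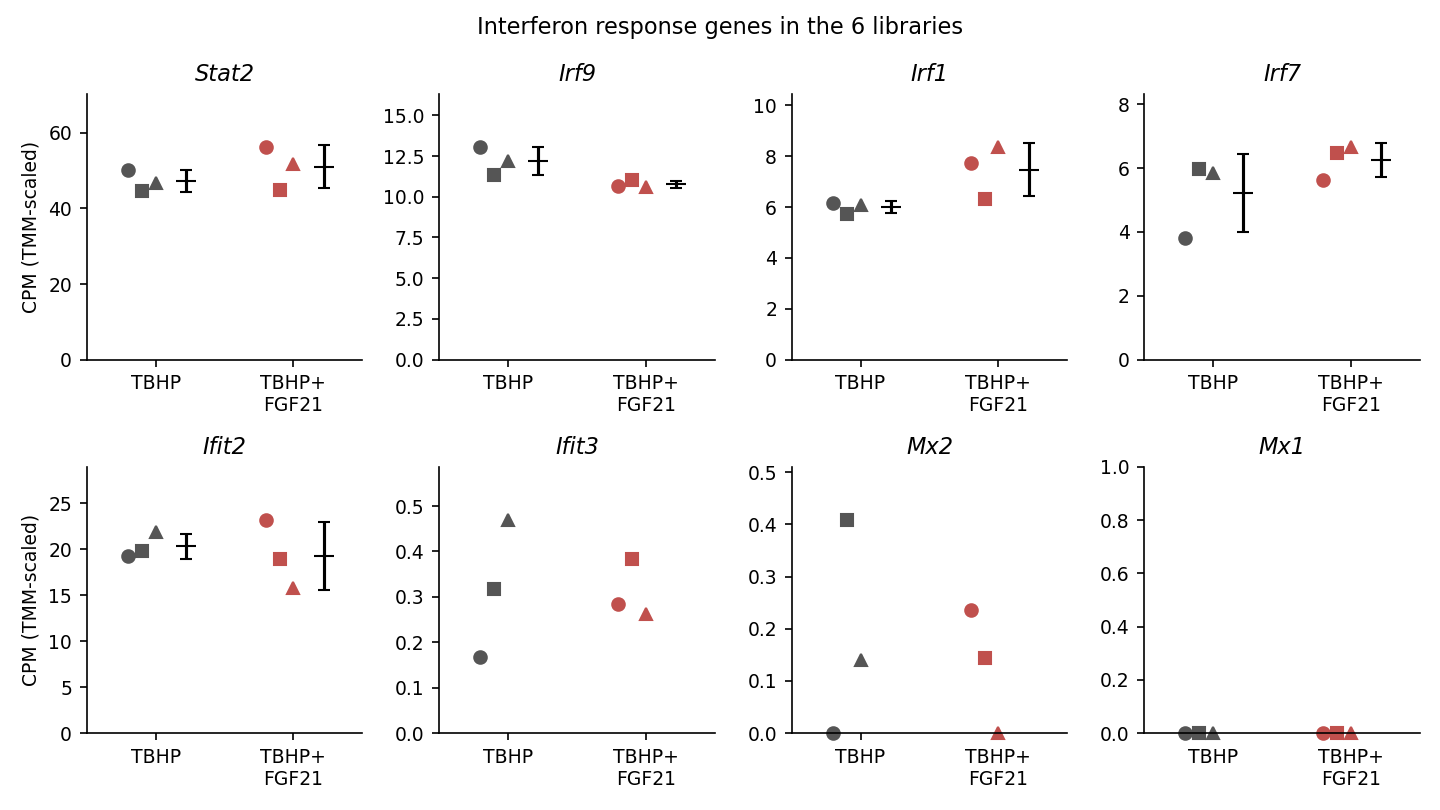
Level of the 8 interferon response genes with a row in the table, as TMM-scaled CPM on axes that start at 0, in the TBHP (grey) and TBHP+FGF21 (red) libraries. Circles, squares and triangles are replicates 1, 2 and 3, and for the 5 tested genes bars give the mean and SD of 3 libraries. Irf1 and Irf9 are the genes whose groups do not overlap, Irf7 shows the single low TBHP library at 3.80 CPM, and Mx1 lies at 0 throughout.

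The other effectors were hardly counted. Ifit3, a partner of the IFIT proteins, had 3, 7 and 10 counts in the TBHP group against 6, 8 and 6 with FGF21. Both groups thus summed to 20 counts, and the ratio of TBHP+FGF21 to TBHP per sequenced count was 0.958 (exact 95% interval 0.489 to 1.88). Mx2 had 0, 9 and 3 counts in the TBHP group against 5, 3 and 0 with FGF21, a ratio of 0.639 (exact 95% interval 0.226 to 1.70). Each group held a library without any Mx2 count. These intervals cover counting error only and not the spread between libraries, which was wide for Mx2. Mx1 was listed at 0 in all 6 libraries, and a count of 0 allows up to 3 counts, or 0.134 to 0.164 CPM per library. A low row need not mean a silent gene in this table. Col1a2, which encodes a partner chain of Col1a1, had 0.391 to 0.771 CPM where Col1a1 had 27868 to 42463 CPM, and the proteasome activator gene Psme1 had 5 counts in all. These examples were chosen after their values had been seen. Multimapping reads (6.27% to 7.02% of the total) were not counted, and the part of this in the rows for Mx1, Mx2 and Ifit3, which have close paralogs, was not tested.

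**Figure D2:**
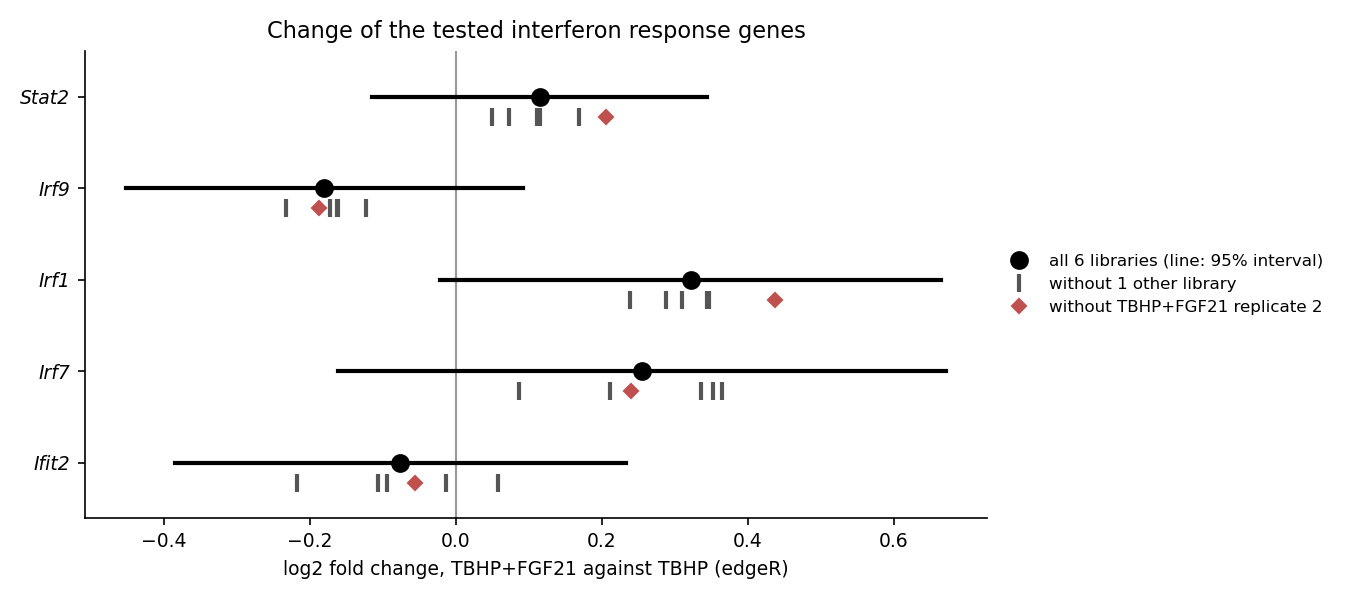
The log2 fold change of TBHP+FGF21 against TBHP by edgeR for the 5 tested genes, with the value from all 6 libraries and its 95% interval in black. Grey ticks and the red diamond give the values with 1 library left out. Each interval crosses 0, and the values with a library left out keep their sign for every gene except Ifit2.

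The 5 genes did not share an order of libraries. The highest value was in replicate 1 of the TBHP+FGF21 group for Stat2 and Ifit2, in replicate 3 of that group for Irf1 and Irf7, and in replicate 1 of the TBHP group for Irf9. The lowest value was in replicate 3 of the TBHP+FGF21 group for Irf9 and Ifit2, in replicate 2 of the TBHP group for Stat2 and Irf1, and in replicate 1 of the TBHP group for Irf7. Replicate 3 of the TBHP+FGF21 group therefore held the highest level of 2 genes and the lowest of another 2. Between the highest and the lowest library the level differed by 1.23-fold for Irf9, 1.27-fold for Stat2, 1.47-fold for Irf1 and for Ifit2, and 1.76-fold for Irf7. The SD of log2 CPM within groups was 0.28 for Irf7, 0.21 for Ifit2, 0.15 for Irf1, 0.13 for Stat2 and 0.08 for Irf9. Counting alone would give an SD of about 0.13, 0.07, 0.12, 0.04 and 0.09 for the same genes at their mean counts.

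**Figure D3:**
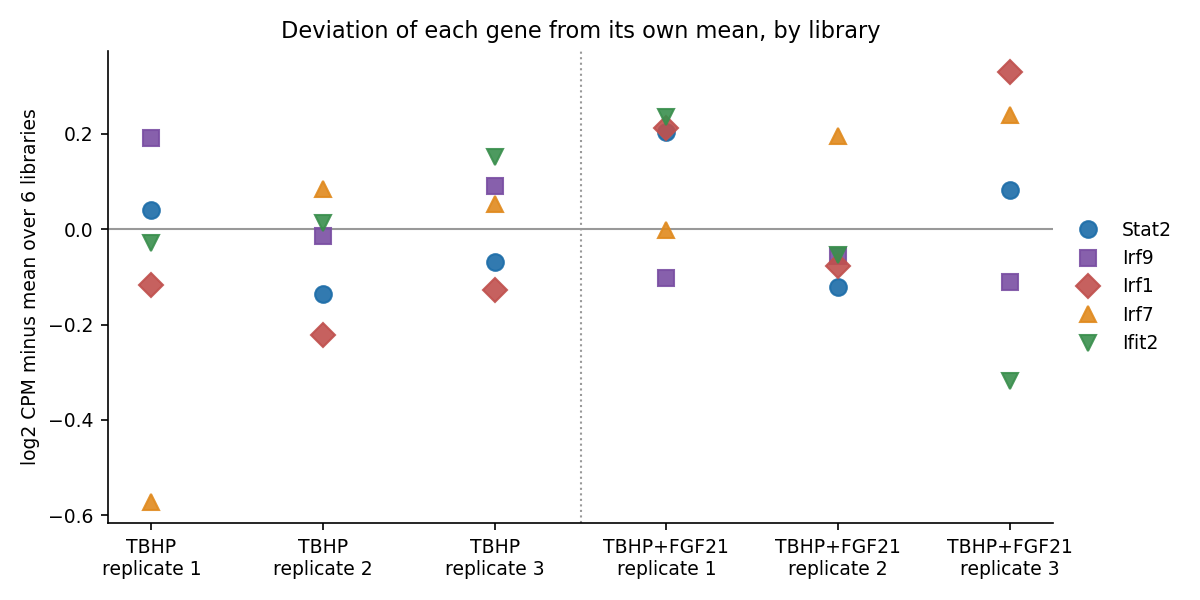
Log2 CPM of Stat2, Irf9, Irf1, Irf7 and Ifit2 in each library, minus the mean of the gene over all 6 libraries. The genes scatter on both sides of 0 in each library, and the points farthest from 0 are Irf7 in replicate 1 of the TBHP group at -0.57 and Irf1 in replicate 3 of the TBHP+FGF21 group at 0.33.

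The TBHP+FGF21 libraries labelled FGF22 and FGF23 were each left out, and then both. Without replicate 2 of the TBHP+FGF21 group, 867 of 11559 genes tested (7.50%) had an adjusted p under 0.05 by edgeR, and none of the interferon response genes was among them. Irf1 came nearest, with a log2 fold change of 0.44 (unadjusted p = 0.0167, edgeR adjusted p = 0.116), where 23.6% of all genes had an unadjusted p under 0.05 (11.6% higher, 12.0% lower). Stat2 was then at 0.21 (unadjusted p = 0.0668, edgeR adjusted p = 0.248), Irf7 at 0.24, Irf9 at -0.19 and Ifit2 at -0.06. When replicate 3 was left out instead, Irf1 was at 0.24 (unadjusted p = 0.197, edgeR adjusted p = 0.973), Stat2 at 0.11, Irf7 at 0.21, Irf9 at -0.16 and Ifit2 at 0.06, and 2.96% of all genes had an unadjusted p under 0.05. The 2 omissions thus moved Irf1 in opposite directions. With replicate 1 as the sole TBHP+FGF21 library, the one labelled FGF21, the log2 fold changes were 0.26 for Stat2, 0.37 for Irf1, 0.11 for Irf7, -0.19 for Irf9 and 0.19 for Ifit2, and no adjusted p of these genes was under 0.05, beside 2.77% of all genes. In this fit the lone library is assumed to vary like the TBHP libraries.

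The wider pathway was read from 136 further symbols in 8 lists, of which 108 had a row and 77 were tested. Of the 77 genes, 51 had a log2 fold change above and 26 below 0, with a median of 0.08. Over all 11426 genes tested, 5592 were above and 5834 below 0. None of the 77 pathway genes had an adjusted p under 0.05 by edgeR. An unadjusted p under 0.05 was reached by 10 of them (13.0%, beside 8.92% of all genes), 6 higher and 4 lower. This number moved with single libraries. When TBHP libraries were left out it was 5 (replicate 1), 4 (replicate 2) and 12 (replicate 3), and when TBHP+FGF21 libraries were left out it was 4, 17 and 2 in the same order. The share of all genes moved alike, at 4.41%, 2.92% and 15.3% without TBHP replicates 1, 2 and 3, and at 4.15%, 23.6% and 2.96% without those of the TBHP+FGF21 group. The 17 genes were 22.1% of the 77 then tested. Of the 10 genes, Pml alone kept an unadjusted p under 0.05 in all 6 of these fits. The median of the 77 genes stayed between 0.06 and 0.11 in these fits.

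At the head of the pathway, interferons themselves were scarcely found. Of 4 interferon genes with a row, Ifnb1, Ifnk and Ifng had no count in any library. Ifne, an epithelial type I interferon, had 0, 10 and 2 counts in the TBHP group against 3, 2 and 3 with FGF21. All 9 genes of receptors and their kinases were tested, and none had an unadjusted p under 0.05. Ifnar1 was at 68.7 ± 5.00 and 73.9 ± 2.22 CPM and Ifnar2 at 18.1 ± 1.12 and 19.5 ± 0.905 CPM (SD, n = 3 each). For the interferon gamma receptor, Ifngr1 was at 42.2 ± 5.66 and 47.1 ± 4.47 CPM and Ifngr2 at 49.7 ± 3.78 and 48.1 ± 3.06 CPM. The cells thus held receptor transcripts of both types in every library. The smallest p of this list was that of Jak1, at a log2 fold change of 0.18 (edgeR adjusted p = 0.624). Of the other STAT and IRF factors, 7 were tested and none had an unadjusted p under 0.05. Irf2, which competes with IRF1 for its sites, had the smallest, at 0.22 (edgeR adjusted p = 0.581).

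Nucleic acid sensors and adaptors had 2 of 11 tested genes at an unadjusted p under 0.05 (18.2%, beside 8.92% of all genes), both higher. Sting1, the adaptor of cytosolic DNA sensing, stood at 4.64, 5.80 and 6.75 CPM in the TBHP group and at 8.01, 6.80 and 10.6 CPM in the TBHP+FGF21 group. The groups just failed to overlap, at 6.75 and 6.80 CPM. Its log2 fold change was 0.56 (standard error 0.20, edgeR adjusted p = 0.553), and with replicate 2 of the TBHP+FGF21 group left out it was 0.70 (edgeR adjusted p = 0.0313). Leaving out replicate 3 instead gave 0.37 (edgeR unadjusted p = 0.0819). With any single library other than replicate 2 left out, the adjusted p of Sting1 by edgeR was 0.244 to 0.982. Myd88, the adaptor of most Toll-like receptors, was at 0.23 (edgeR adjusted p = 0.553). Cgas, which makes the second messenger that STING binds, was at 0.14 (edgeR adjusted p = 0.852).

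Antiviral effectors had 31 of 44 genes with a row in the test. Here 6 genes had an unadjusted p under 0.05 (19.4%, beside 8.92% of all genes), and they were divided, with Pml and Apol9a higher and Ifit1bl, Ifi27l2b, Gbp2 and Slfn2 lower with FGF21. Pml, the organizer of nuclear bodies, stood at 41.2, 37.5 and 46.6 CPM in the TBHP group and at 57.0, 44.7 and 70.9 CPM with FGF21. Its log2 fold change was 0.46 (standard error 0.15, edgeR adjusted p = 0.553). Leaving out a TBHP+FGF21 library gave 0.63 for replicate 2 (edgeR adjusted p = 0.0050) and 0.29 for replicate 3. Gbp2, a guanylate-binding GTPase and a classical interferon gamma target, stood at 4.75, 5.03 and 5.53 CPM in the TBHP group and at 3.89, 3.88 and 3.14 CPM in the TBHP+FGF21 group. All libraries with FGF21 were below all libraries without, and the log2 fold change was -0.49 (standard error 0.18, edgeR adjusted p = 0.553). Ifit1bl, a relative of Ifit2 and Ifit3, had 24, 32 and 30 counts in the TBHP group and 19 counts in each TBHP+FGF21 library. Its log2 fold change of -0.67 (standard error 0.27, edgeR adjusted p = 0.553) was the lowest of the pathway genes tested, beside -0.08 for Ifit2. The log2 fold change was -0.57 for Ifi27l2b, -0.26 for Slfn2 and 0.45 for Apol9a. Ifi27l2b was at 130.4, 123.3 and 75.1 CPM in the TBHP group and at 71.2, 96.5 and 53.5 CPM in the TBHP+FGF21 group, so that the groups overlapped. Its log2 fold change was -0.38 without TBHP+FGF21 replicate 3, and -0.62 with the sole library labelled FGF21. With TBHP+FGF21 replicate 2 left out, 4 pathway genes had an adjusted p under 0.05 by edgeR, 5.19% of those tested beside 7.50% of all genes, namely Sting1, Pml, Lgals3bp (all higher) and Ifi27l2b (lower). Lgals3bp was named after its value had been seen, and the adjusted p values of Pml and Ifi27l2b were then 0.0050 and 0.0111. Among the effectors with a row, Oas1a, Oas2, Oas3, Gbp4 and Gbp7 were listed at 0 in all libraries, as Mx1 was.

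In antigen presentation, 1 of 9 tested genes had an unadjusted p under 0.05 (11.1%, beside 8.92% of all genes). This was Tapbp, which encodes tapasin, the loading factor of class I molecules, at 0.30 (edgeR adjusted p = 0.553). It was 0.15 (edgeR unadjusted p = 0.212) without TBHP+FGF21 replicate 3, which had 48.7 CPM beside 36.5 and 36.4 CPM in replicates 1 and 2. Among 9 feedback genes, Trim24 was at 0.45 (edgeR adjusted p = 0.553) and was the single gene under this limit, while Usp18, the protease that removes ISG15 and dampens the receptor, was at 0.19 (edgeR adjusted p = 0.687). Of the interferon-induced chemokines, Cxcl9, Cxcl11 and Ccl5 had no count. Cxcl10 had 8, 15 and 7 counts in the TBHP group against 21, 16 and 17 with FGF21. Every library with FGF21 had more Cxcl10 counts than every library without, and the log2 fold change was 0.76 (standard error 0.38, edgeR adjusted p = 0.557).

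**Figure D4:**
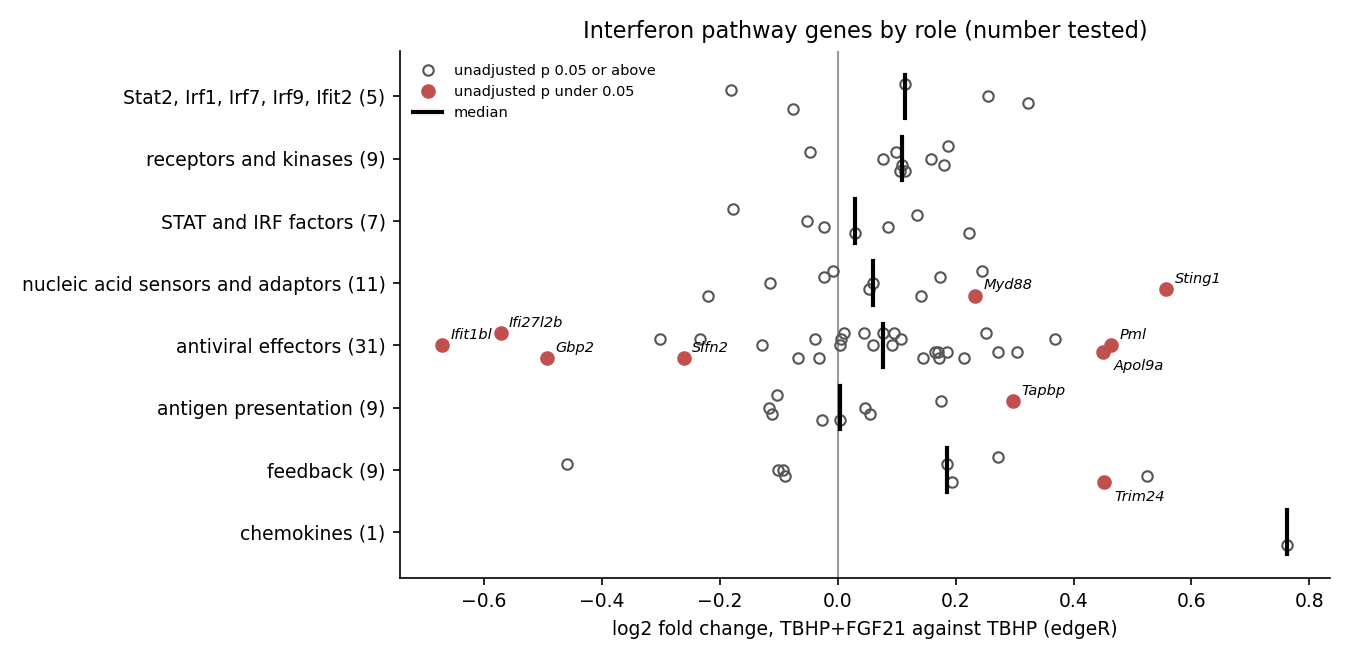
The log2 fold change of TBHP+FGF21 against TBHP by edgeR for the tested interferon genes, grouped by role, with 1 point per gene, filled in red where the unadjusted p was under 0.05, and a black bar at the median of each group. The antiviral effectors hold red points on both sides of 0, from Ifit1bl at -0.67 to Pml at 0.46, and the 5 genes of the top row hold none.

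Markers of leukocytes and endothelial cells were low, and their sums overlapped between the groups. Of 14 macrophage and other leukocyte markers, Ptprc, Adgre1, Cd163, Mrc1 and Tyrobp were listed at 0 in all libraries. The summed level of the list was 32.7 to 38.5 CPM in the TBHP group and 27.1 to 33.4 CPM in the TBHP+FGF21 group. Nearly all of it was Cd14, and without this gene, left out after its values had been seen, the sums were 1.81 to 2.90 and 2.13 to 2.83 CPM. Of 5 endothelial markers with a row, Cdh5, Kdr and Emcn were at 0, and the list summed to 0.609 to 0.950 and 0.474 to 1.10 CPM. The labelled cell type was checked in the same way, and 15 nucleus pulposus and notochordal markers summed to 3326 to 3789 CPM in the TBHP group and 3695 to 5153 CPM with FGF21. Most of this was Acan, and without it, left out after its values had been seen, the sums were 820 to 856 and 798 to 838 CPM. Over the 6 libraries, most of the remainder was Slc2a1 (354 to 401 CPM), Ncam1 (183 to 260 CPM) and Hif1a (104 to 123 CPM). Krt8 was at 2.31 to 4.27 CPM and Cd24 at 0.718 to 2.13 CPM. The list of 12 annulus fibrosus and fibroblast markers was far higher, at 43474 to 48343 and 33281 to 45643 CPM, mostly Col1a1, and summed to 5210 to 5880 and 5413 to 5529 CPM without that gene. The part of these markers in the interferon genes was not tested. Aggrecan (Acan), the main proteoglycan of the disc core, was at 2506 to 4355 CPM, a log2 difference of 0.40 (edgeR adjusted p = 0.553) between overlapping groups. Krt8, a keratin of notochordal cells, was lower with FGF21 in every library, at a log2 difference of -0.43 (edgeR adjusted p = 0.553), and the notochordal markers Shh and Noto were at 0 and Col2a1 was at 0.408 to 0.782 CPM. Of the 11 tested nucleus pulposus and notochordal markers, 2 had an unadjusted p under 0.05 by edgeR (8.92% of all genes), both higher. These were Acan and Sox9, the latter at 0.56 (edgeR adjusted p = 0.553) between overlapping groups and named after its value had been seen. Of 11 tested annulus fibrosus and fibroblast markers, 1 was higher and 1 lower at that limit. In bulk RNA, fewer cells with a transcript and less of it per cell cannot be told apart.

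Genes whose profile over the 6 libraries was most like the median profile of the 5 tested genes were sought among 10745 genes. Likeness was the root mean square difference of log2 CPM, each gene centred on its own mean. The nearest were Ostm1 (0.0427), Bbs4 (0.0441), Fbxl20 (0.0443), Rnf25 (0.0460) and Vipas39 (0.0465), none of them on the interferon lists. Their log2 fold changes lay between 0.06 and 0.09, with an adjusted p of 0.779 or more by edgeR. The median profile itself was nearly flat, from -0.06 in replicate 2 to 0.20 in replicate 1 of the TBHP+FGF21 group.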

How the data were processed

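The 9 genes and the gene lists were chosen with earlier results of these data known. Libraries were grouped by title. The authors deposited a combined table of raw counts per gene symbol, treated as estimated counts because 22 rows hold values that are not whole, which were rounded up, and files of whole read counts per Ensembl identifier for each sample. STAR and featureCounts are named in the submitters' processing notes. The genome build is not given in the sources used here. The counts of the 7 interferon response genes with a count were identical in both kinds of file. Reads outside genes (9.13% to 10.4%), unmapped, multimapping or ambiguous stayed out of library sizes. Counts were analysed with edgeR 4.0.16 in R 4.3.3 (TMM, filterByExpr with minimum count 10 and minimum total 15, condition only, glmQLFit and glmQLFTest). Alternatives used limma 3.58.1, DESeq2 1.42.0, other filters and columns, a replicate block and fewer libraries. Standard errors are the log2 fold change over the square root of F. The fits were tested on simulated counts. Depth was 18277724.5 to 22426186 counts, so 3 counts are 0.134 to 0.164 CPM. The named genes were the 9 genes, in each list the gene with the smallest p and all with an unadjusted p under 0.05, interferons with a count, the receptors and the 5 nearest profiles. Cgas, Usp18, Lgals3bp, Col1a2 and Psme1 were named after their values were seen. Values of a further gene named by the rule are not reported here. Replicates are biological per the labels.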

Additional observations from a re-analysis of the deposited data

How the results depend on the processing

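No adjusted p of the 5 tested genes was under 0.05 in any fit, and with 3 libraries a group the intervals above set the size of difference that could have been missed. With 1 library left out, the number of the 5 genes with an adjusted p under 0.05 was 0 throughout and with an unadjusted p under 0.05 between 0 and 1, their median log2 fold change was 0.05 to 0.21, the pathway genes with an unadjusted p under 0.05 numbered 2 to 17, and over all genes 0 to 867 had an adjusted and 337 to 2732 an unadjusted p under 0.05. Ifit2 then ranged from -0.22 to 0.058 and Ifngr2 from -0.095 to 0.012.

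By setting, genes with an adjusted p under 0.05 numbered 0 with the per-sample files (unstranded, strand column 4 or strand column 3), limma-voom and limma on log2(normalized count + 1), against 1082, 1049, 956, 996 and 664 with an unadjusted p under 0.05. They numbered 4 by DESeq2's Wald test, 5 with no filter, and 325 (1669 unadjusted) with the sole library labelled FGF21. With the strand column 4, 1 of the 5 genes (Irf1) and 5 pathway genes had an unadjusted p under 0.05. Over all genes it was 1049 of 11962 tested. The pathway number was 6 with the strand column 3, beside 956 of 11937 genes, and 6 with DESeq2, beside 923 of 14882 genes. The sign turned for Bbs4 (-0.0071, strand column 4), and, with the sole library labelled FGF21, for Ifit2 (0.19) and Ifngr2 (0.029). The cause of these shifts was not tested. Strand column 3 and the sole FGF21 library were chosen after seeing the data.

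The replicate block gave 2 genes with an adjusted and 1599 of 11426 with an unadjusted p under 0.05. None of the 5 genes was among them, and 10 of the 77 pathway genes had an unadjusted p under 0.05. Whether libraries of the same number pair could not be settled with 3 libraries a group. Deviations from the group means correlated at -0.16, 0.31 and 0.20 for the same number. For unlike numbers they correlated at -0.33 to 0.23.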
